A study of Mus musculus with 8 samples.

Results

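Heat shock proteins and DnaJ proteins are the main molecular chaperones of the mouse cell, and their genes were followed in lung endothelial cells (ECs) of pups reared in normoxia or hyperoxia. Members were the protein-coding genes of the deposited table whose symbol begins with Hspa, Hspb, Hspd, Hspe, Hsph or Dnaja, Dnajb, Dnajc and a digit, or with Hsp90. The rule used names and no measured value, and it gave 72 of 54532 genes. All libraries came from wild-type (WT) pups of the C57BL/6J strain at postnatal day 14. The 4 normoxia libraries came from pups kept in room air (21% O2), and the 4 hyperoxia libraries from pups kept in 80% O2 from postnatal day 0, an exposure used in mice to model bronchopulmonary dysplasia. Lung cells were freed by enzymatic digestion, depleted of CD45-positive leukocytes and captured on beads that bind CD31, a surface protein of ECs. The isolate was therefore enriched for ECs without being pure, and the labels did not say whether a library held 1 pup or several, so p-values measure the spread between these libraries, part of which may be technical.

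Chaperones bind unfolded stretches of other proteins and keep them from aggregating. Hsp70 proteins do so in cycles of ATP use. J proteins (DnaJA, DnaJB and DnaJC) bring them substrates and start ATP hydrolysis, and nucleotide exchange factors such as the Hsp110 proteins release the substrate. Hsp90 finishes the folding of kinases and receptors, small heat shock proteins hold unfolded proteins without using ATP, and the chaperonin of mitochondria encloses its substrate in a chamber. The cytosol, the endoplasmic reticulum (ER) and the mitochondrial matrix each have their own Hsp70. Heat shock factors switch on the inducible members of the cytosol, while the unfolded protein response switches on those of the ER lumen. In ECs, Hsp90 is known as a partner of endothelial nitric oxide synthase.

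Libraries held 16098086 to 18300730 counts. Levels are in CPM, counts scaled to a common library total after TMM normalisation, and genes are compared with each other only by FPKM, which also divides by gene length. Endothelial markers were abundant, summing to 14265 to 15276 CPM in normoxia and to 13949 to 14712 CPM in hyperoxia. Of 8 such markers 3 rose (Cldn5, Emcn and Kdr) and 3 fell (Erg, Tek and Tie1). Cldn5, a tight junction protein of ECs, was the most abundant of them by FPKM. It rose from 2066 ± 92.4 to 2408 ± 110 CPM (mean ± SD, n = 4 libraries a group, edgeR adjusted p = 0.00643). Tek had the largest change of the 8 and fell from 1182 ± 68.2 to 682 ± 49.8 CPM (edgeR adjusted p = 6.35e-06). The quasi-likelihood test of edgeR with Benjamini-Hochberg adjustment was run on 15564 genes, and calls were made below an adjusted p of 0.05. At that threshold 18.5% of the genes tested were higher in hyperoxia and 17.1% were lower, 35.6% in all, so a call by itself was common in this comparison. With a log2 fold change of at least 1 as well, 5.62% were higher and 1.36% were lower.

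Of the 72 chaperone genes, 62 passed the count filter and were tested. The other 10 were Dnajb3, Dnajb7, Dnajb8, Dnajc5b, Dnajc5g, Dnajc6, Dnajc22, Hspb2, Hspb3 and Hspb7, several of them known from testis, muscle or nerve. None of the 10 had more than 10 counts in a library, and Dnajc5b, Dnajc5g and Hspb3 had no count at all, which at this depth allows up to 0.186 CPM in the smallest library. Among the 62, 9 were higher in hyperoxia, 12 were lower and 41 were not called. The share called, 33.9%, was close to the 35.6% of all genes tested. No member was higher past the fold threshold, against 5.62% of all genes, and 2 members, Hspa2 and Dnajc28, were lower past it, against 1.36%. Log2 fold changes of the tested members ran from -1.16 to 0.67 with a median of -0.02, beside a median of -0.00400 over all genes tested. For 43 of the 62 the absolute value was under 0.25, a share that was not computed over all genes. The libraries of the groups did not overlap for 9 members that were higher and 11 that were lower, beside 17.8% and 17.6% of all genes. Chaperone genes therefore moved about as often as other genes, and most of their changes were small.

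**Figure D1:**
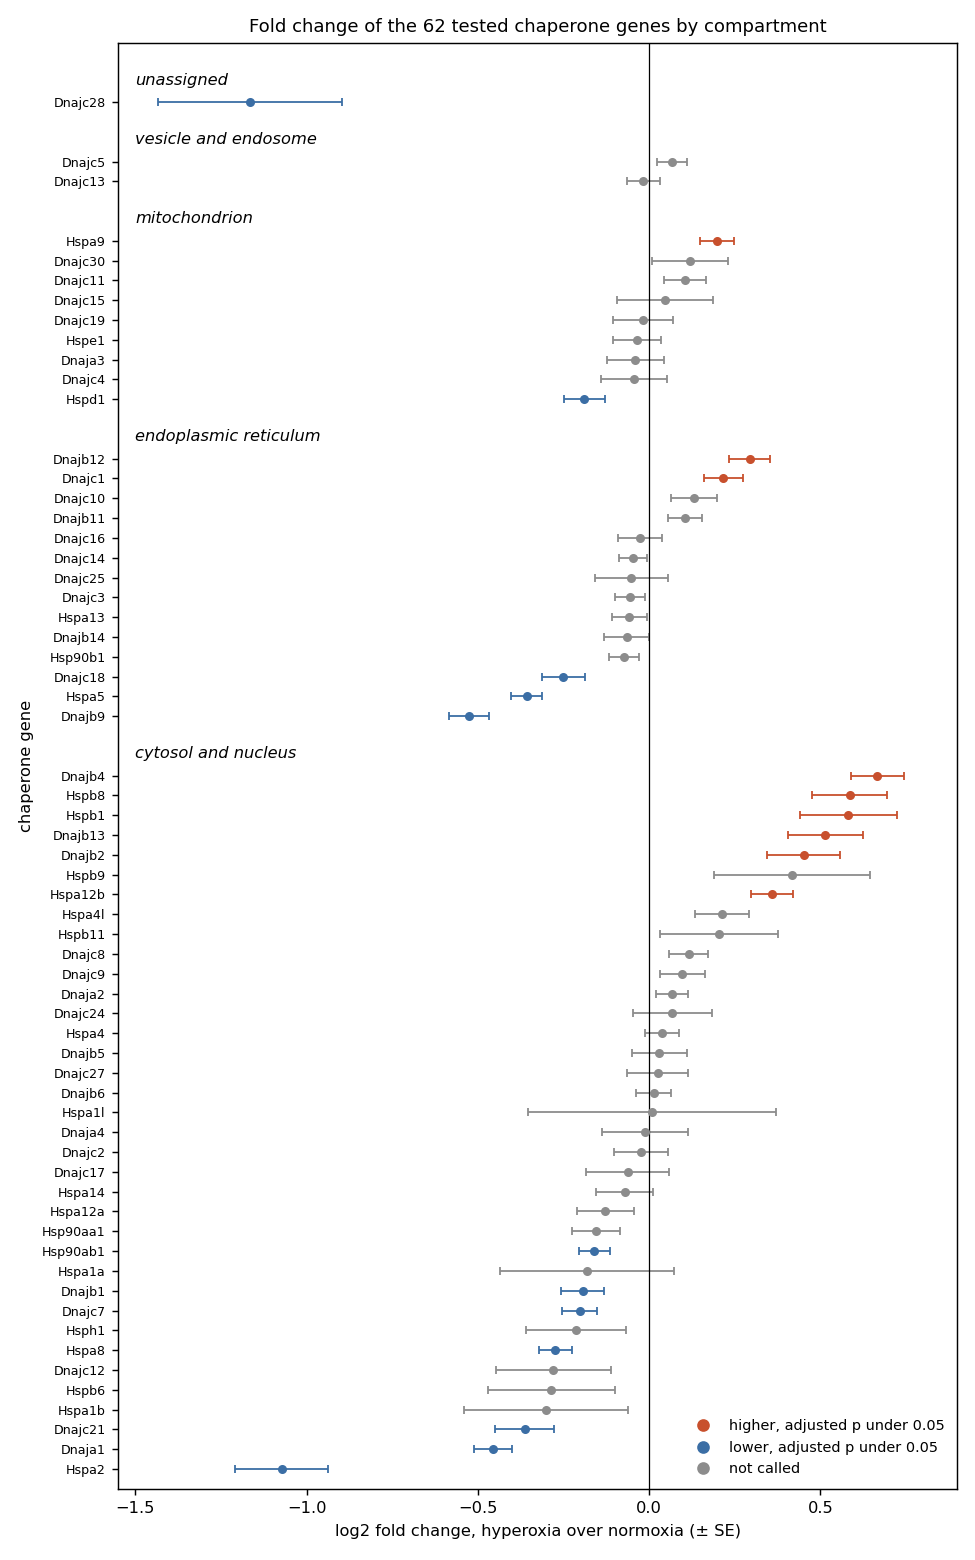
Log2 fold change of hyperoxia over normoxia (x axis, with SE) for the 62 tested chaperone genes, ordered within their compartment. Red points were called higher (9 genes), blue points lower (12 genes) and grey points were not called (41 genes), and the points run from -1.16 for Dnajc28 to 0.67 for Dnajb4.

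By family, DnaJB genes and small heat shock proteins held most of the rises, though families were small. Over all genes tested 18.5% were higher and 17.1% were lower. Of 10 tested DnaJB genes 4 rose and 2 fell, with a median log2 fold change of 0.07. Of 5 tested genes with Hspb symbols 2 rose and none fell, with a median of 0.42. The 5 include Hspb11, an intraflagellar transport protein that was grouped with small heat shock proteins by its symbol. Of 11 Hsp70 genes 2 rose and 3 fell. Of 24 DnaJC genes 1 rose and 4 fell, and 19 were not called. Falls without a rise were found among 4 DnaJA genes, 3 Hsp90 genes and 2 chaperonin genes, with 1 fall in each family, and none of 3 Hsp110 genes was called. By compartment, 6 genes of the cytosol and nucleus rose and 7 fell among 36 tested, 2 rose and 3 fell among 14 of the ER, and 1 rose and 1 fell among 9 of mitochondria. The shares called in these compartments were 36.1%, 35.7% and 22.2%, beside 35.6% of all genes tested. Neither of the 2 tested genes of vesicles and endosomes, Dnajc5 and Dnajc13, was called.

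The most abundant chaperone transcripts were those of the cytosol. Over all libraries Hsp90ab1, the constitutive Hsp90, averaged 552 FPKM, and Hspa8, the constitutive Hsp70 also called Hsc70, averaged 304 FPKM. Next came the inducible Hsp70 gene Hspa1b with 281 FPKM, the lumenal Hsp70 gene Hspa5 with 134 FPKM and the second inducible Hsp70 gene Hspa1a with 133 FPKM. Hsp90b1, Hsp90aa1, Hspb1, Hspa12b and Dnajc8 completed the first 10 with 95.7, 87.0, 77.9, 70.5 and 56.8 FPKM. Of these 10, 3 fell (Hsp90ab1, Hspa8 and Hspa5), 2 rose (Hspb1 and Hspa12b), and the median log2 fold change was -0.16. Of the 779 genes of any kind at that level or above, 27.0% fell and 26.7% rose with a median of -0.02. Summed over all 72 members, chaperone genes reached 2478 ± 199 FPKM in normoxia and 2275 ± 103 FPKM in hyperoxia (SD of 4 libraries), and the groups overlapped. Their share of all counts was 0.921 ± 0.0654% in normoxia and 0.821 ± 0.0359% in hyperoxia.

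The constitutive Hsp70 and Hsp90 of the cytosol both fell by a small amount. Hspa8 (chr9:40800984-40810087, plus strand) stood at 1515, 1366, 1459 and 1419 CPM in normoxia 1 to 4 and at 1249, 1201, 1152 and 1160 CPM in hyperoxia 1 to 4. All hyperoxia libraries lay below all normoxia libraries, with a log2 fold change of -0.27 (SE 0.048, edgeR adjusted p = 0.00138). Hsp90ab1 (chr17:45567775-45573271, minus strand) stood at 1856, 1727, 1743 and 1706 CPM in normoxia and 1560, 1516, 1624 and 1590 CPM in hyperoxia. Again the groups did not overlap, and the log2 fold change was -0.16 (SE 0.045, edgeR adjusted p = 0.0180). This call was lost in 6 of 18 other settings, where the adjusted p reached 0.0706. Dnaja1, the J protein that serves Hsc70, fell more than its partner. Its levels were 419, 481, 414 and 430 CPM in normoxia and 315, 304, 323 and 328 CPM in hyperoxia, a log2 fold change of -0.46 (SE 0.055, edgeR adjusted p = 0.000119) with no overlap. Dnaja2, the other abundant J protein of Hsc70, was not called (109 ± 4.62 CPM against 114 ± 3.84 CPM, SD of 4 libraries, edgeR adjusted p = 0.286). The Hsp110 gene Hspa4, a nucleotide exchange factor of Hsp70, was not called either, at 173 ± 9.61 CPM and 177 ± 5.23 CPM (edgeR adjusted p = 0.609).

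The inducible Hsp70 genes differed more between libraries of 1 group than between the groups. Hspa1a and Hspa1b lie on the minus strand of chromosome 17 with their starts 12918 bases apart (genes at chr17:34969190-34972156 and chr17:34956436-34959238), and encode nearly the same protein. Their promoters were compared because the pair moved together in these libraries. In RefSeq sequence of build GRCm38.p6 the 250 bases before both starts had the same base at 247 positions (98.8%). Each holds 1 match to GAANNTTC, a heat shock element of 2 units facing each other, at 104 bases before the start. Capitals mark the match. Only exact letters were searched, so units with other letters or spacing were not counted. Hspb1, the small heat shock protein described further on, is shown with them because it rose while the pair was not called. The 250 bases of Hspb1 hold 2 such matches, at 117 and 97 bases before the start.
Hspa1a (chr17:34972157-34972406, minus strand): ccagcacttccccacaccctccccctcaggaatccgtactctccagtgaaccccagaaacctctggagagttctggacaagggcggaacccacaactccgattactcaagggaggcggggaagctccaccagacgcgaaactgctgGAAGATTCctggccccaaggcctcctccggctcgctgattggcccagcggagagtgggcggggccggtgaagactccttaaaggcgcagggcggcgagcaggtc
Hspa1b (chr17:34959239-34959488, minus strand): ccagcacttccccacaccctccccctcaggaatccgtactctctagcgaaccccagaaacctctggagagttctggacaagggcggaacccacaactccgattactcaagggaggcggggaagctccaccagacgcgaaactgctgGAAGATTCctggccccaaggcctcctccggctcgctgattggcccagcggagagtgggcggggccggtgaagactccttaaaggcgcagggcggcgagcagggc
Hspb1 (chr5:135887669-135887918, plus strand): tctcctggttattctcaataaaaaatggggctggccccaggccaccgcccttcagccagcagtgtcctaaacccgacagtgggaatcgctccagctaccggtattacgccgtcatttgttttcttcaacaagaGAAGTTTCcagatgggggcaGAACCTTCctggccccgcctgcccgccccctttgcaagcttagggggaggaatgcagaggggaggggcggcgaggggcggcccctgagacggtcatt

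Promoter windows of RefSeq, 250 bases before to 50 bases after a start, were matched for 58 of the 72 members. Searched as letters on both strands, GAANNTTC was found in a window of 14 of the 58 (24.1%) and of 9.04% of the 27025 genes with a window, 7.05% of those tested here. Of these 14 members 2 rose (Hspb1 and Hspb8), 2 fell (Dnaja1 and Hspd1), 8 were not called and 2 were not tested. The opposite arrangement TTCNNGAA was found in 6 of the 58 (10.3%), and in 9.60% of all genes and 8.48% of those tested. Of these 6 members 1 rose (Dnajb4), 1 fell (Hspd1) and 4 were not called. A run of 3 units (GAANNTTCNNGAA or TTCNNGAANNTTC, which contain the shorter motifs) was found in 4 members, Dnajb6, Hspd1, Hspe1 and Hsph1, and in 0.662% of all genes and 0.569% of those tested. A CCAAT box was found in 25 of the 58 (43.1%), 41.1% of all genes and 42.3% of those tested. The letters TATAAA were found in 4 of the 58 (6.90%), 15.7% of all genes and 9.02% of those tested. A match describes the letters in these windows and no binding. No window was matched for Dnajc2, Dnajc5, Dnajc5b, Dnajc11, Dnajc12, Dnajc18, Dnajc22, Dnajc30, Hsp90aa1, Hsp90ab1, Hspa8, Hspa9, Hspa13 and Hspb2.

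Hspa1b stood at 1129, 1041, 850 and 490 CPM in normoxia 1 to 4 and at 835, 577, 548 and 889 CPM in hyperoxia 1 to 4. Hspa1a stood at 536, 524, 408 and 223 CPM in normoxia and 446, 296, 288 and 462 CPM in hyperoxia. Within each group the libraries had the same order for both genes, and the groups overlapped. Log2 fold changes were -0.30 (SE 0.24) for Hspa1b and -0.18 (SE 0.25) for Hspa1a, with edgeR adjusted p of 0.359 and 0.618. Between the highest and the lowest normoxia library the level differed 2.31-fold for Hspa1b and 2.41-fold for Hspa1a, and in hyperoxia 1.62-fold and 1.61-fold. The SD within groups, on log2(CPM + 0.5), was 0.49 for Hspa1a and 0.46 for Hspa1b. These were the 21st and 26th largest among 2308 genes of at least 100 CPM, whose median was 0.08, whereas Hspa8 had 0.06 and Hsp90ab1 0.05. Of windows of 100 bases in Hspa1a, 47.1% were also found in Hspa1b, and 49.9% of those in Hspa1b were also found in Hspa1a, so how the counting split their reads is uncertain.

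The other inducible members shared part of this order. Hsph1, the inducible Hsp110, stood at 79.4, 88.8, 70.7 and 48.5 CPM in normoxia and 59.8, 61.8, 59.5 and 66.5 CPM in hyperoxia, a log2 fold change of -0.21 (SE 0.15, edgeR adjusted p = 0.285). Hsp90aa1, the inducible Hsp90, stood at 377, 398, 351 and 326 CPM in normoxia and 329, 311, 306 and 357 CPM in hyperoxia, a log2 fold change of -0.16 (SE 0.070, edgeR adjusted p = 0.109). Both sets of groups overlapped. Normoxia 4 was the lowest normoxia library for 5 of the 6 heat-inducible genes (Hspa1a, Hspa1b, Hsph1, Hspb1 and Hsp90aa1, but not Dnajb1), and hyperoxia 4 was the highest hyperoxia library for all 6. Without normoxia 4 the log2 fold change of Hsph1 was -0.36 (edgeR adjusted p = 0.00711) and that of Hsp90aa1 was -0.21 (edgeR adjusted p = 0.0434), so that both became calls. Without it, Hspa1b had -0.50 (edgeR adjusted p = 0.0554) and Hspa1a -0.39 (edgeR adjusted p = 0.128). Normoxia 4 was the lowest normoxia library for these genes, so leaving it out lowers their fold changes. No other of the 18 settings called Hsph1 or Hsp90aa1. Dnajb1, the inducible J protein Hsp40, was 102, 108, 90.6 and 91.5 CPM in normoxia and 87.8, 82.2, 84.4 and 87.9 CPM in hyperoxia. Its log2 fold change of -0.19 (SE 0.062, edgeR adjusted p = 0.0310) was past the threshold with no overlap, but the call was lost in 6 of 18 other settings, with an adjusted p of up to 0.0895.

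**Figure D2:**
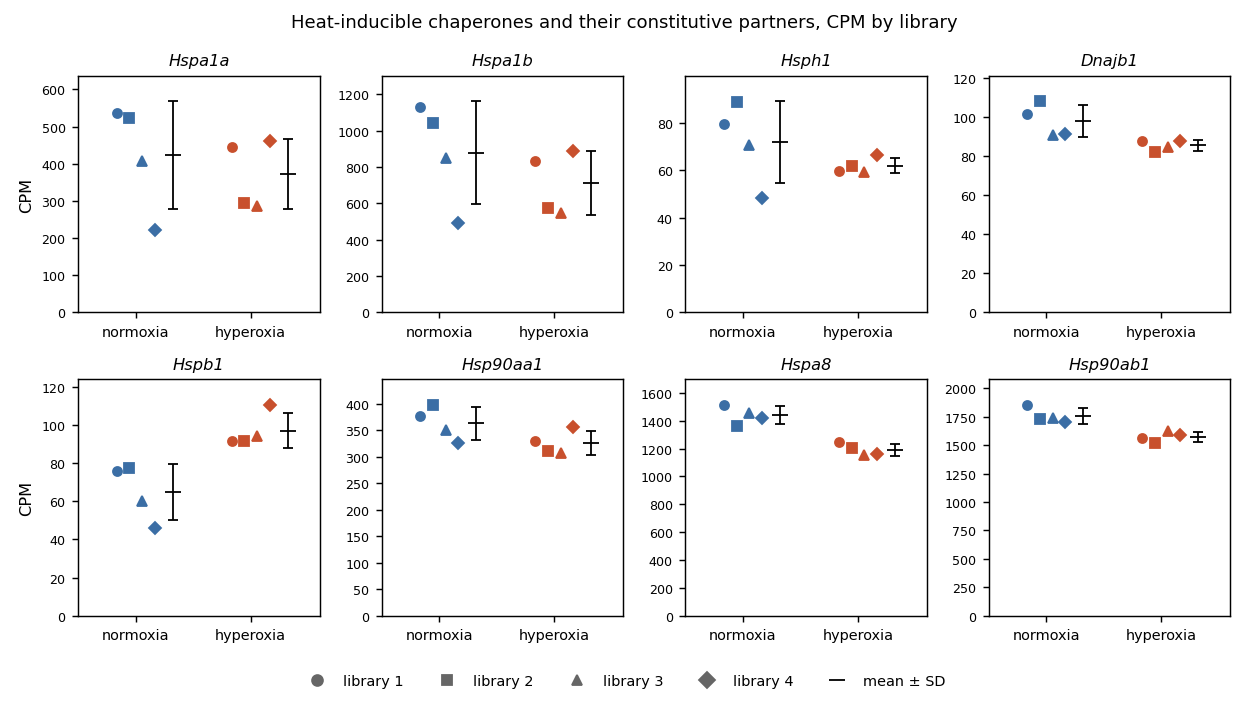
CPM (y axis, from 0) in each library for 6 heat-inducible chaperones and the constitutive Hspa8 and Hsp90ab1, with normoxia in blue, hyperoxia in red, a symbol for each library number, and the mean with SD as a bar. Hspa1a and Hspa1b spread from 223 to 536 and from 490 to 1129 CPM within normoxia, while the groups of Hspa8 and Hsp90ab1 were tight and did not overlap.

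Immediate early genes, which cells raise during dissociation, were read beside this set. Of 14 such genes 6 rose and 1 fell, their median log2 fold change was 0.22, and Ier3, the most abundant per length, fell from 770 ± 72.2 to 474 ± 52.1 CPM (SD of 4 libraries, edgeR adjusted p = 0.000131). Their summed level was 7766 to 9446 CPM in normoxia and 8700 to 9434 CPM in hyperoxia. Normoxia 4, at 8863 CPM, lay inside the range of the other normoxia libraries in that sum, and hyperoxia 4 had the highest hyperoxia value. The part of dissociation in the spread of the heat-inducible genes was not tested.

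Both small heat shock proteins that were called rose. Hspb1 (Hsp25, chr5:135887919-135889563, plus strand) took 86.7% of the summed FPKM of this family. It stood at 75.9, 77.2, 60.1 and 46.0 CPM in normoxia and 91.3, 91.5, 94.2 and 111 CPM in hyperoxia. The groups did not overlap, and the log2 fold change was 0.58 (SE 0.14, edgeR adjusted p = 0.00897). It was 0.45 without normoxia 4 (edgeR adjusted p = 0.00881) and 0.51 without hyperoxia 4 (edgeR adjusted p = 0.0257). Hspb1 was thus the only one of the 6 heat-inducible genes called higher. Of its windows of 100 bases 42.7% were shared with the pseudogene Hsp25-ps1, which itself had 5 counts over all libraries. Hspb8, the partner of the co-chaperone Bag3, stood at 10.7, 9.16, 8.39 and 10.5 CPM in normoxia and 15.1, 15.8, 14.5 and 12.8 CPM in hyperoxia. All hyperoxia libraries were higher, with a log2 fold change of 0.59 (SE 0.11, edgeR adjusted p = 0.00188). Hspb6, Hspb9 and Hspb11 lay between 2.55 and 3.93, 1.35 and 2.44, and 2.63 and 3.92 CPM, and none was called. Hspb11, an intraflagellar transport protein, was counted in the family by its symbol. The summed FPKM of the family was 72.6 ± 14.5 in normoxia and 107 ± 7.98 in hyperoxia, without overlap.

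J proteins of the DnaJB family gave the largest rise. Dnajb4 (chr3:152178511-152210302, minus strand), a J protein of the cytosol, stood at 30.6, 34.7, 29.7 and 34.1 CPM in normoxia and 49.4, 57.2, 46.4 and 51.8 CPM in hyperoxia. Every hyperoxia library was higher than every normoxia library, with a log2 fold change of 0.67 (SE 0.077, edgeR adjusted p = 8.74e-05). Its close relative Dnajb1 fell, so that the ratio of Dnajb4 to Dnajb1, in FPKM, was 0.121 ± 0.0112 in normoxia and 0.219 ± 0.0244 in hyperoxia. Dnajb2 stood at 20.9, 16.8, 17.7 and 14.5 CPM in normoxia and 24.3, 23.6, 25.8 and 21.8 CPM in hyperoxia, a log2 fold change of 0.45 (SE 0.11, edgeR adjusted p = 0.00721) without overlap. Dnajb12, a membrane J protein of the ER that faces the cytosol, rose from 32.0 ± 1.65 to 39.3 ± 1.97 CPM (SD of 4 libraries), a log2 fold change of 0.29 (edgeR adjusted p = 0.00305). Dnajb13, known from the radial spokes of cilia, stood at 8.63, 11.5, 10.3 and 11.2 CPM in normoxia and 15.0, 13.7, 14.3 and 16.5 CPM in hyperoxia, a log2 fold change of 0.51 (SE 0.11, edgeR adjusted p = 0.00415). Of its exon bases 11.2% overlap Ucp2 on the opposite strand, and Ucp2 averaged 448 CPM over all libraries and was not called (log2 fold change -0.03, edgeR adjusted p = 0.711). The use of strand in counting was not given in the sources used here, so reads of the shared bases cannot be told apart. Ciliated cell markers were low. Of 8 such genes 4 were tested and 1, Dnah11, rose, and the sum ran from 9.98 to 11.9 CPM in normoxia and from 12.2 to 16.7 CPM in hyperoxia. The defining marker Foxj1 averaged 1.24 CPM in normoxia and 1.02 CPM in hyperoxia.

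The falls past the fold threshold were in genes of low level. Hspa2, an Hsp70 best known from testis (chr12:76404176-76406938, plus strand), stood at 21.7, 22.5, 17.1 and 18.7 CPM in normoxia and 8.79, 7.59, 10.2 and 11.3 CPM in hyperoxia. The lowest normoxia library was above the highest hyperoxia library, and the log2 fold change was -1.07 (SE 0.14, edgeR adjusted p = 0.000160). Without hyperoxia 2 it was -0.98, short of the fold threshold. Dnajc28, a little studied J protein, stood at 2.39, 1.88, 3.69 and 2.10 CPM in normoxia and 1.43, 1.08, 0.916 and 1.05 CPM in hyperoxia. Its log2 fold change was -1.16 (SE 0.27, edgeR adjusted p = 0.00651), and -0.92 without normoxia 3, which was the highest library, again short of the fold threshold. Hspa12b, a distant Hsp70 relative found mainly in ECs, moved the other way. It stood at 251, 219, 221 and 225 CPM in normoxia and 271, 290, 307 and 308 CPM in hyperoxia, a log2 fold change of 0.36 (SE 0.060, edgeR adjusted p = 0.000991) with no overlap. Among the cytosolic DnaJC genes, Dnajc21, which acts in ribosome biogenesis, fell from 22.0 ± 0.444 to 17.1 ± 1.93 CPM (edgeR adjusted p = 0.00744). Dnajc7, which carries tetratricopeptide repeats, fell from 131 ± 6.85 to 114 ± 4.76 CPM (edgeR adjusted p = 0.0104). Dnajc8, a splicing factor partner and the most abundant DnaJC gene, was not called (140 ± 9.13 against 152 ± 7.07 CPM, edgeR adjusted p = 0.139).

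**Figure D3:**
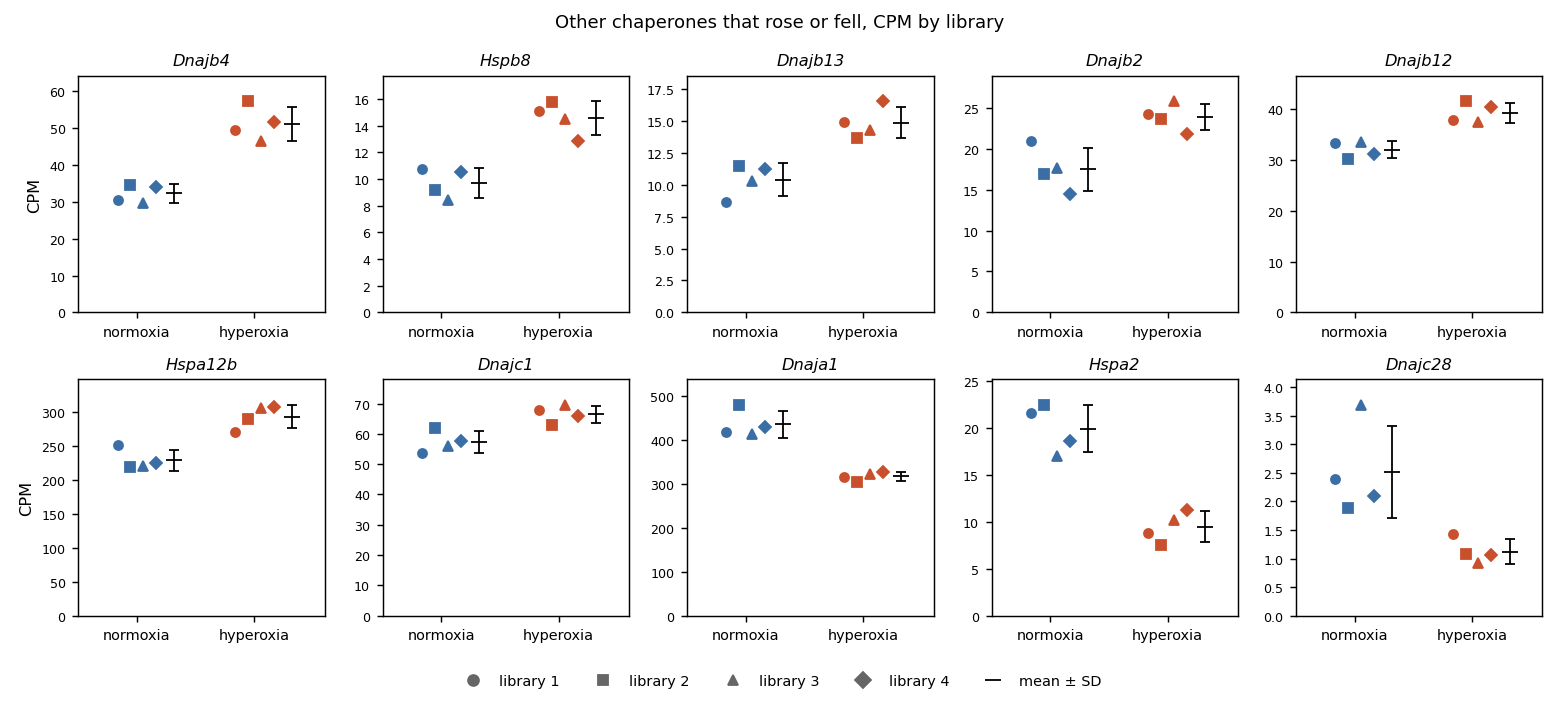
CPM (y axis, from 0) in each library for 10 further called members, with normoxia in blue, hyperoxia in red, a symbol for each library number, and the mean with SD as a bar. The 7 members that rose and the 3 that fell (Dnaja1, Hspa2 and Dnajc28) have groups that do not overlap, and Dnajc28 shows its highest value, 3.69 CPM, in normoxia 3.

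In the ER lumen, the central Hsp70 and a J protein fell while most partners were not called. Hspa5 (BiP, chr2:34771970-34777547, plus strand), the Hsp70 of the lumen and a classic target of the unfolded protein response, stood at 672, 623, 633 and 642 CPM in normoxia and 510, 501, 516 and 478 CPM in hyperoxia. The groups were far apart relative to their spread, with a log2 fold change of -0.36 (SE 0.045, edgeR adjusted p = 0.000144). Dnajb9 (ERdj4), a J protein of BiP, stood at 60.9, 56.1, 57.2 and 55.6 CPM in normoxia and 41.1, 37.1, 38.4 and 43.0 CPM in hyperoxia. Its log2 fold change was -0.53 (SE 0.059, edgeR adjusted p = 7.04e-05), again with no overlap. Hsp90b1 (GRP94), the Hsp90 of the lumen, stood at 413, 375, 400 and 405 CPM in normoxia and 384, 376, 383 and 371 CPM in hyperoxia. It was not called, at a log2 fold change of -0.07 (SE 0.044, edgeR adjusted p = 0.225). The J proteins Dnajb11 (ERdj3) and Dnajc10 (ERdj5, a disulfide reductase) had log2 fold changes of 0.11 and 0.13, and Dnajc3 (p58IPK) had -0.06, with edgeR adjusted p of 0.123, 0.155 and 0.365. Of the membrane J proteins, Dnajc1, which recruits BiP, rose from 57.2 ± 3.60 to 66.5 ± 2.83 CPM (edgeR adjusted p = 0.0125), and Dnajc18 fell from 72.1 ± 6.13 to 60.6 ± 1.84 CPM (edgeR adjusted p = 0.00976). Summed over the 14 ER members the level was 399 ± 13.8 FPKM in normoxia and 357 ± 4.75 FPKM in hyperoxia, without overlap, and Hspa5 made up 35.5% of it.

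The ER stress element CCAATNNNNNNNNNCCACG was found, on either strand, in 3 members with a promoter window, Hspa5, Hsp90b1 and Dnajc3, and in 0.137% of the 27025 genes with a window. They are shown because they carry the same letters and were called differently, lower for Hspa5 and not called for the others. The element of Hspa5 starts 65 bases and that of Dnajc3 105 bases before the RefSeq start, and Hsp90b1 holds 2 of them. That of Hspa5 lies inside the gene span given above, which begins further upstream than the RefSeq start. Capitals mark the elements in 30 bases of Hspa5 and Dnajc3 and in 185 bases of the Hsp90b1 promoter.
Hspa5 (chr2:34772020-34772049, plus strand): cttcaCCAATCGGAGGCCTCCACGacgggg
Dnajc3 (chr14:118937822-118937851, plus strand): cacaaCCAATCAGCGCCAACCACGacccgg
Hsp90b1 (chr10:86705510-86705694, minus strand): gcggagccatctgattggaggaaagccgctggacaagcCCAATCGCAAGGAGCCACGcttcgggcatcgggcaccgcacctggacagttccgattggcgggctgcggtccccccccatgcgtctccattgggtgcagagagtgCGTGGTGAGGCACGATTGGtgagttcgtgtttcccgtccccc

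Chaperones of the mitochondrial matrix parted in direction by small amounts. Hspa9 (mortalin), the Hsp70 of the matrix and of the import motor, stood at 107, 97.8, 111 and 106 CPM in normoxia and 118, 119, 126 and 121 CPM in hyperoxia. All hyperoxia libraries were higher, with a log2 fold change of 0.20 (SE 0.049, edgeR adjusted p = 0.0101). Hspd1 (Hsp60), the chaperonin, stood at 95.0, 87.8, 92.2 and 80.4 CPM in normoxia and 81.0, 75.2, 81.3 and 74.1 CPM in hyperoxia. Its log2 fold change was -0.19 (SE 0.060, edgeR adjusted p = 0.0312), the groups overlapped, and the call was lost in 5 of 18 other settings, with an adjusted p of up to 0.0908. Hspe1 (Hsp10), the lid of the chaperonin, stood at 43.7, 37.7, 42.4 and 36.0 CPM in normoxia and 39.8, 37.2, 38.4 and 40.4 CPM in hyperoxia and was not called (log2 fold change -0.04, edgeR adjusted p = 0.723). Dnaja3 (Tid1), the matrix J protein, was not called either (32.0 ± 3.39 against 31.1 ± 2.30 CPM, edgeR adjusted p = 0.745). Of 5 mitochondrial DnaJC genes none was called. The summed level of the 9 mitochondrial members was 121 ± 6.33 FPKM in normoxia and 120 ± 2.20 FPKM in hyperoxia.

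Hspd1 and Hspe1 lie head to head on chromosome 1 (chr1:55077835-55088243, minus strand, and chr1:55088132-55091307, plus strand) and share 112 exon bases on opposite strands. The same run of heat shock units stands before the start of Hspe1, by 89 bases, and, on the other strand, before the inner of 2 RefSeq starts of Hspd1, by 139 bases. It lies inside the span given for Hspd1, and the window at the outer start of Hspd1 holds no match to GAANNTTC or TTCNNGAA. It is shown because the pair shares it and Hspd1 alone was called. Capitals mark 3 units in 30 bases, and the distances above are to the first marked base. A further unit of the run adjoins the capitals in lower case in both.
Hspd1 (chr1:55088050-55088079, minus strand): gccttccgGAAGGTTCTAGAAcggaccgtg
Hspe1 (chr1:55088051-55088080, plus strand): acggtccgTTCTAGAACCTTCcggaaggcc

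**Figure D4:**
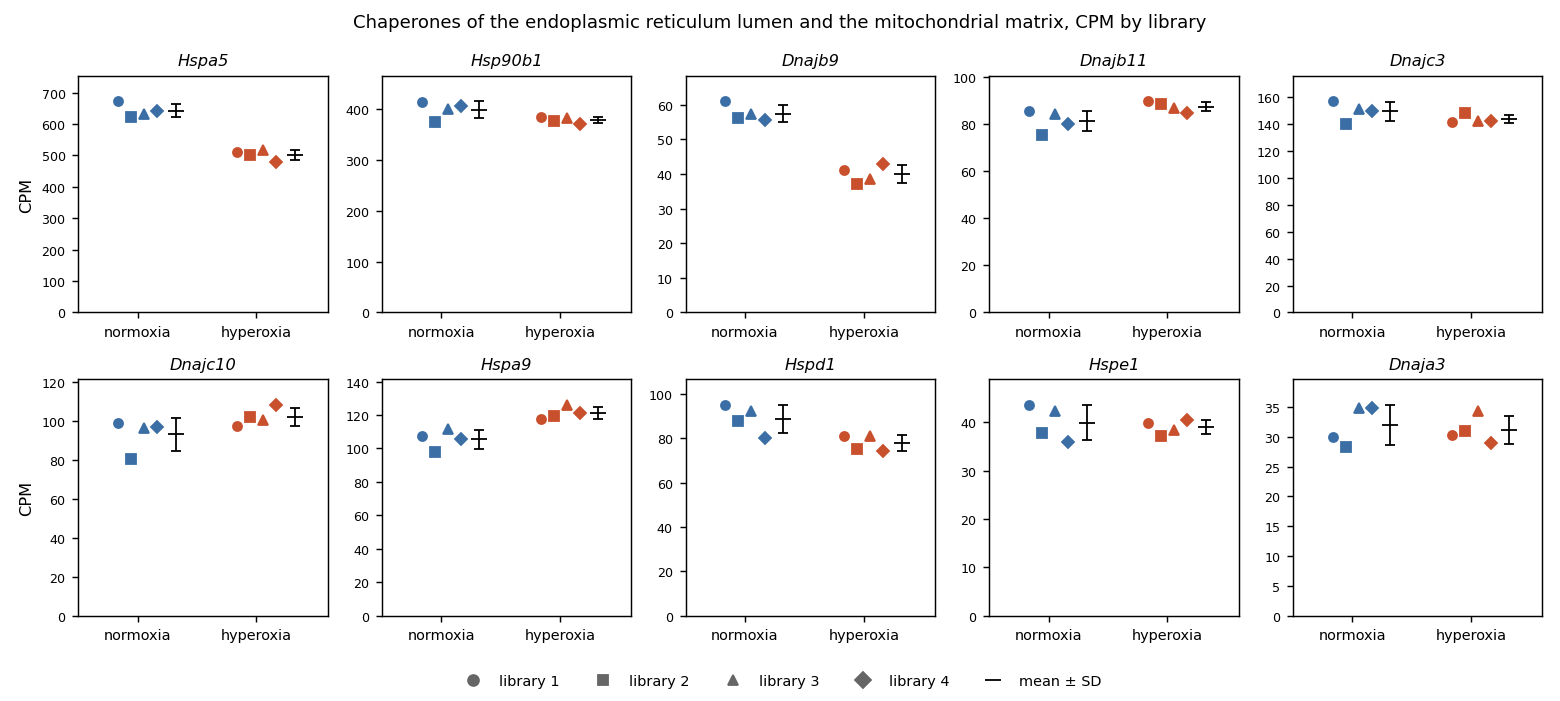
CPM (y axis, from 0) in each library for 6 chaperones of the ER lumen and 4 of the mitochondrial matrix, with normoxia in blue, hyperoxia in red, a symbol for each library number, and the mean with SD as a bar. Hspa5 and Dnajb9 are lower and Hspa9 is higher in all hyperoxia libraries, and the groups of the other 7 genes overlap.

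Ratios between partner genes were formed within each library, where a common scale drops out, and are given as descriptions without a test. The inducible to constitutive ratio did not separate the groups. Hsp90aa1 over Hsp90ab1 was 0.158 ± 0.0128 in normoxia and 0.158 ± 0.0113 in hyperoxia (SD of 4 libraries), and Hspa1a plus Hspa1b over Hspa8 was 1.36 ± 0.443 and 1.37 ± 0.332. The matrix Hsp70 rose against that of the cytosol, since Hspa9 over Hspa8 was 0.0803 ± 0.00278 in normoxia and 0.111 ± 0.00725 in hyperoxia, without overlap. Hspa5 over Hspa8 was 0.454 ± 0.0102 and 0.428 ± 0.0184, with overlap. Hspe1 over Hspd1 was 0.805 ± 0.0255 and 0.898 ± 0.0561, without overlap.

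**Figure D5:**
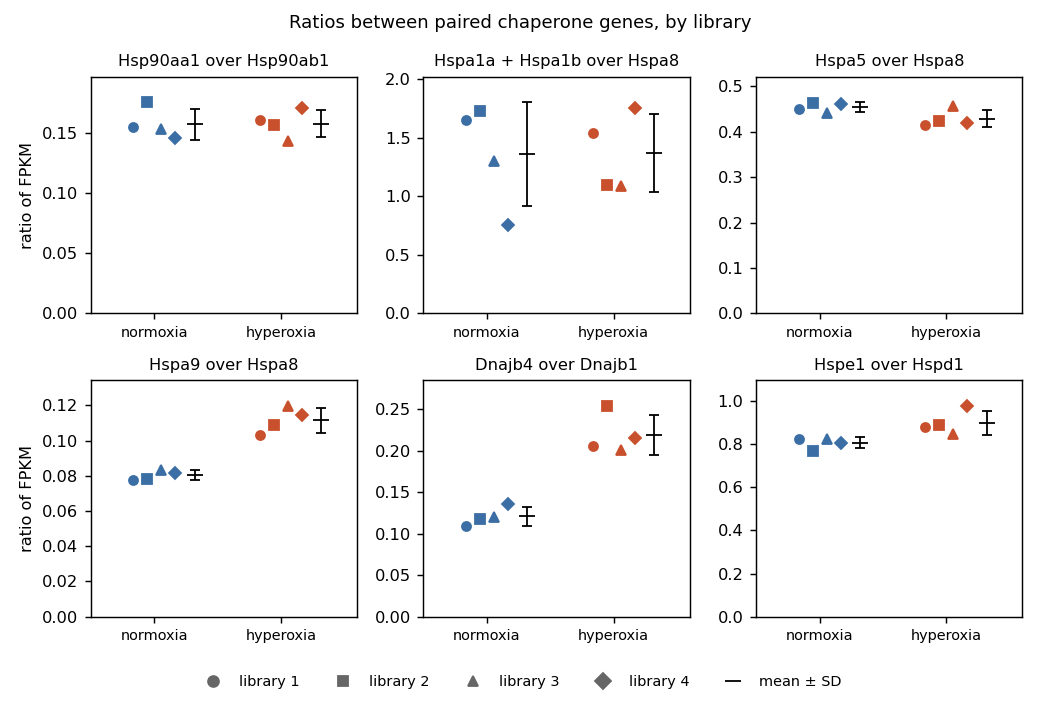
Ratio of FPKM between 2 chaperone genes, or a pair and 1 gene, in each library (y axis, from 0), with normoxia in blue, hyperoxia in red, a symbol for each library number, and the mean with SD as a bar. The groups are apart for Hspa9 over Hspa8, Dnajb4 over Dnajb1 and Hspe1 over Hspd1, and overlap for the other 3 ratios.

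Regulators and neighbours of the chaperone system were read from lists written from general knowledge. Of 3 tested heat shock factors none rose and 1 fell, and the median log2 fold change was -0.07. Hsf1, the main factor of the heat shock response, was not called (51.4 ± 2.18 against 48.8 ± 1.13 CPM, edgeR adjusted p = 0.265), and Hsf2 fell from 21.2 ± 0.534 to 16.8 ± 0.888 CPM (edgeR adjusted p = 0.00324). Of 13 nucleotide exchange factors and regulators of Hsp70, Bag1, Bag5 and Grpel1 rose and Bag3 and Bag6 fell, with a median of 0.06. Bag6, the most abundant, went from 411 ± 18.1 to 365 ± 7.65 CPM (edgeR adjusted p = 0.0128). Bag3, which was singled out after its values were seen because it is the partner of Hspb8, fell from 143 ± 15.8 to 109 ± 4.01 CPM (log2 fold change -0.39, edgeR adjusted p = 0.00203), in the direction opposite to Hspb8. Of the 15 genes listed as Hsp90 co-chaperones none rose and 4 fell (Fkbp4, Sugt1, Trap1 and Unc45b), with a median of -0.04. Trap1 is itself the Hsp90 of the mitochondrial matrix, outside the name rule, and not a co-chaperone. It fell from a mean of 63.6 CPM in normoxia to 57.0 CPM in hyperoxia (log2 fold change -0.16, edgeR adjusted p = 0.0339), without overlap. Stip1, the most abundant on the list, was 80.4 ± 6.50 and 80.6 ± 1.52 CPM (edgeR adjusted p = 0.968).

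Of the 8 genes of the CCT chaperonin, which folds actin and tubulin, Tcp1 and Cct8 rose and none fell. The median was 0.10, and the summed level was 866 to 988 CPM in normoxia and 1004 to 1019 CPM in hyperoxia. Cct2, the most abundant, was not called (168 ± 6.43 against 179 ± 4.02 CPM, edgeR adjusted p = 0.136). Of 6 prefoldin genes, whose product hands substrates to CCT, Pfdn2 and Pfdn5 fell and none rose, with a median of -0.08, and Pfdn5 went from 82.3 ± 6.61 to 72.2 ± 1.25 CPM (edgeR adjusted p = 0.0271). Of 9 tested genes listed as chaperones that the name rule does not reach, 4 rose (Cryab, Serpinh1, Clpp and Gak) and 1 fell (Sec63). The median was 0.03. Clpp is itself a subunit of a mitochondrial protease and not a chaperone. Serpinh1, the collagen chaperone of the ER, rose from 789 ± 24.4 to 967 ± 12.8 CPM (edgeR adjusted p = 0.000314). Cryab, a small heat shock protein under another name, rose from 3.01 ± 1.14 to 12.4 ± 4.46 CPM (log2 fold change 2.04, SE 0.32, edgeR adjusted p = 0.000606), further than any member of the Hspb family.

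Markers of other lung cells rose in the hyperoxia libraries, and the part of those cells in the chaperone values was not tested. A change in the number of cells of a type and a change in RNA per cell cannot be told apart in bulk samples. All 8 markers of alveolar type 2 cells rose, with a summed level of 235 to 331 CPM in normoxia and 734 to 2191 CPM in hyperoxia, and Sftpc, the most abundant, went from 106 ± 31.1 to 1121 ± 476 CPM (edgeR adjusted p = 4.88e-05). All 6 markers of alveolar type 1 cells rose (71.8 to 88.1 CPM against 140 to 375 CPM). Of 7 tested mural and smooth muscle markers 6 rose (42.3 to 70.7 CPM against 93.5 to 153 CPM), and of 4 fibroblast markers 3 rose (56.0 to 98.6 CPM against 84.1 to 225 CPM). Of 2 tested cardiac markers 1 rose, at sums of up to 3.68 CPM. The 1 tested club cell marker was not called, and of 6 leukocyte markers none rose and 1 fell (110 to 212 CPM against 108 to 176 CPM). Hyperoxia 3 had the lowest sums of type 2, type 1, mural and fibroblast markers among the hyperoxia libraries. Of the 9 members that rose, hyperoxia 3 was the lowest hyperoxia library for 2 (Dnajb4 at 46.4 CPM and Dnajb12 at 37.4 CPM), the highest for 3 (Dnajb2, Dnajc1 and Hspa9) and between the others for 4. Cryab stood at 13.4, 16.9, 6.24 and 12.8 CPM in hyperoxia 1 to 4, and so was lowest in hyperoxia 3 as well.

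Some counts have limits set by sequence. Of windows of 100 bases, 39.6% of those in Hsp90aa1 were shared with the pseudogene Gm12346 (4.35 and 3.69 CPM in normoxia and hyperoxia), 28.9% of those in Hspa8 with Gm15459, which had no count, and 25.8% of those in Hspd1 with Hspd1-ps3, which had 25 to 163 counts per library. Dnaja1 shares 7.05% of its exon bases with Smu1 on the opposite strand, and Dnajc1 shares 6.43% with Mllt10, which fell (log2 fold change -0.33, edgeR adjusted p = 0.00263) while Dnajc1 rose. In all, 28 of the 72 members overlap an exon of another gene, and 14 pseudogenes that match the name rule were left out because they are not protein-coding.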

How the data were processed

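Bulk RNA-seq libraries of bead-isolated lung ECs were compared, 4 from normoxia (titles Air) and 4 from hyperoxia. The authors deposited whole-number gene counts and FPKM for the same genes. Per the labels' processing notes HISAT2 2.0.5, featureCounts 1.5.0-p3 and mm10 were used, and the handling of strand and of reads matching several genes was not given in the sources used here. The deposited FPKM equalled counts over length and library total, times a constant of 0.974 to 1.01 per library. Coordinates are those of the files, and 69 of 72 members have the same ones in GENCODE M21 (GRCm38).

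Counts were tested with edgeR 4.0.16 (R 4.3.3, with filterByExpr, TMM, quasi-likelihood test, group as the only term) over 15564 genes with Benjamini-Hochberg adjustment, at 0.05, and for fold calls at a log2 fold change of 1. The script was checked on simulated counts. Totals were 16098086 to 18300730 counts per library, and errors are the spread between libraries. The limit for a count of 0 was 3 counts per library and covers counting error only. Named members were those past both thresholds, the 8 largest rises and falls called at a mean of at least 10 CPM, the 2 highest by FPKM per family, and fixed inducible, lumenal and matrix sets. Members and lists were chosen with earlier results of these data known, and 1 gene of the list of other chaperones is not reported here. Alternatives were RLE and upper-quartile normalisation, other filters, DESeq2 1.42.0, limma-voom (limma 3.58.1), log2 FPKM with a pseudocount of 0.1 or 1, protein-coding genes only, the replicate number as a block, and each library left out, 18 settings in all. Same-numbered libraries of the 2 groups did not deviate together (correlations of 0.119, 0.0361, -0.125 and -0.140), so the numbers were not taken as pairs.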

Additional observations from a re-analysis of the deposited data

Results flagged for a closer look

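In 68 groups of 4 libraries (34 named members in normoxia and in hyperoxia), the highest or lowest library was compared with the rest by Dixon's ratio of gap to range. It was past its critical value in 3 groups, where chance gives about 3.4. Dnajc10 was low in normoxia 2, at 80.7 CPM beside 96.4 to 98.8 CPM in the other normoxia libraries. Dnajc3 was high in hyperoxia 2, at 149 CPM beside 142 to 143 CPM. Hspb1 was high in hyperoxia 4, at 111 CPM beside 91.3 to 94.2 CPM, in the library that was also the highest of its group for the other 5 heat-inducible genes.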

How the results depend on the processing

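Across 18 other settings, 9 to 10 members were higher and 9 to 14 were lower (9 and 12 as reported, 9 and 12 with DESeq2). Of the 21 called members that are named, 18 stayed past the threshold in every setting and none changed sign. Dnajb1, Hsp90ab1 and Hspd1 lost the call in 6, 6 and 5 settings. The number lower past the fold threshold, 2, became 1 on log2(FPKM + 0.1) and 0 on log2(FPKM + 1), where a pseudocount shrinks the change of low genes, and was 1 to 2 when a library was left out (1 without hyperoxia 2 or normoxia 3). The 1 mitochondrial member called lower, Hspd1, became 0 with no filter and was 0 to 1 when a library was left out (0 without hyperoxia 2, hyperoxia 4, normoxia 1 or normoxia 3). The cause was not tested. Leaving out a library turned the sign of 3 uncalled genes: Dnaja3 ran from -0.0986 to 0.00287, Hspa4 from -0.00168 to 0.0575 and Hspe1 from -0.0843 to 0.00714 on the log2 scale. With the replicate block, 9 members were higher and 10 lower, and Dnajb1 and Hsp90ab1 were not called. The smallest change called among members was -0.16 on the log2 scale (Hsp90ab1).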
